A study of Mus musculus with 6 samples.

Results

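The 9 genes followed here belong to the handling of superoxide and hydrogen peroxide, and they were taken by gene symbol from RNA-Seq data of mouse liver of which earlier results were known. Of 52459 genes in the count matrix, 5 were the scavenger genes Sod1, Sod2, Sod3, Cat and Ccs, and 4 were the phagocyte oxidase genes Cybb, Cyba, Ncf1 and Ncf4. All 9 passed the filter on low counts, which kept 17032 genes. In CRISPR-edited mice, the study asked how loss of the hepatocyte peroxidase Prdx2 affects fatty liver disease that progresses to cancer, and the comparison here asks whether scavengers and oxidase subunits differed between the livers of both groups.

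Both groups were male C57BL6J mice of the Alb-Cre/Cas9 F1 generation, labelled as 8 months old, in which Cre under the albumin promoter turns on Cas9 in hepatocytes. An AAV8 vector given into a vein at 4 to 5 weeks of age carried either the control guide RNA (sgCtrl, 3 animals labelled 5.1, 7.1 and 7.2) or a guide RNA that targets Prdx2 (sgPrdx2, 3 animals labelled 1.1, 1.3 and 3.2). Controls therefore also carried Cas9, the vector and both disease treatments, namely the carcinogen diethylnitrosamine (DEN, 100 mg/kg, 3 weeks after the vector) and, from 1 week later, a choline-deficient high-fat diet (CDAHFD) for 6 months. Each library came from the whole liver of its own mouse, so that the RNA also held the cells that Alb-Cre does not edit.

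Superoxide is turned into hydrogen peroxide by superoxide dismutases, and catalase splits hydrogen peroxide into water and oxygen inside peroxisomes. Phagocytes make superoxide on purpose with an NADPH oxidase, whose membrane core, cytochrome b558, is joined by subunits from the cytosol when the cell is activated. Hepatocytes are rich in catalase and in the copper-zinc dismutase, while the phagocyte oxidase of the liver is known from Kupffer cells, infiltrating monocytes and neutrophils.

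The stretches of DNA before the start sites of Sod1, Cat, Cybb and Ncf1 are shown because these genes stand for the scavengers and the oxidase subunits below. Each is the 250 bases upstream of the RefSeq start site (GRCm38.p6), read 5′ to 3′ on the strand of the gene, with the GC box GGGCGG (either strand) in capitals. The windows are chr16:90220512-90220761 on the plus strand for Sod1, and, on the minus strand, chr2:103485154-103485403 for Cat, chrX:9469325-9469574 for Cybb and chr5:134229626-134229875 for Ncf1.
Sod1: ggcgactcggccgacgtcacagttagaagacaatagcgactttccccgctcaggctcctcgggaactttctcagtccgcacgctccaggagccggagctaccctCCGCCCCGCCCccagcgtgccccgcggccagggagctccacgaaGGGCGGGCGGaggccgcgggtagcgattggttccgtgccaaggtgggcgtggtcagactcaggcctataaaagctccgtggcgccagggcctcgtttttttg
Cat: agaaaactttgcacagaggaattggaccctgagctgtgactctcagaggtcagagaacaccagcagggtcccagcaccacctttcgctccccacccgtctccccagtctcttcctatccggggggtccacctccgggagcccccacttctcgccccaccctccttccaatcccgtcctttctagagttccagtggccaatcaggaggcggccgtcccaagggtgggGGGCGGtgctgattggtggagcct
Cybb: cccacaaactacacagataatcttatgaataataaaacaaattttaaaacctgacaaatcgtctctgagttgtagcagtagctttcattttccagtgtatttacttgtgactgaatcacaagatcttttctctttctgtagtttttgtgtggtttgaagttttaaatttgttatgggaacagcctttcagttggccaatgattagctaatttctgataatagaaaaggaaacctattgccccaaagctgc
Ncf1: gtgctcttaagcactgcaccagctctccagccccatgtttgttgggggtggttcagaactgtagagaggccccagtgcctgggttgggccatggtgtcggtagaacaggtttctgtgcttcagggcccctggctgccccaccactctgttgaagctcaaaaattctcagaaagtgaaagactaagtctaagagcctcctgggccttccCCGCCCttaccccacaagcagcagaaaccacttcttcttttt

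RefSeq windows were matched by symbol for 6 of the 9 genes, the other 2 being those of Sod2 and Cyba. GGGCGG, searched on both strands, lay in 32.7% of 32851 such windows, and it occurred 4 times each in Sod1 and Sod2, 2 times in Cyba, 1 time each in Cat and Ncf1, and 0 times in Cybb. Of the 4 matches in Sod1, neighbouring ones overlapped by 1 or 2 bases. The share of G and C was 66.4% in Sod1, 63.6% in Sod2, 62% in Cat, 60% in Cyba, 54.4% in Ncf1 and 34% in Cybb. GAGGAA, a core that PU.1 can bind, lay in 23.3% of all windows and, among the members, in Sod2 and Cat. TATAAA (12.4% of all windows) was matched in Sod1 alone among the 6, 37 to 32 bases before the start, and so was TGACNNNGC, the core of the antioxidant response element (10.2% of all windows), 56 to 48 bases before it. A match of letters is a description of the window and not a binding site.

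Total counts were 37462102 to 56865293 per liver, at which 3 counts stood for 0.0555 to 0.0921 normalized CPM (counts scaled to library size, with edgeR's TMM factors). Albumin took 6.61 to 7.01% of counts in sgCtrl and 9.28 to 11.3% in sgPrdx2 livers. sgPrdx2 liver 3.2 stood apart from the rest on the first principal component. The level of Prdx2 RNA itself, 119 ± 11.6 CPM in sgCtrl livers, was 120 ± 26.1 CPM in sgPrdx2 livers (SD, n = 3 each), and small Cas9 insertions and deletions need not lower an RNA, so that the labels could not be checked from it. The labels give no batch or date.

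The 9 genes were split by direction. All 5 scavengers had a higher mean in sgPrdx2 livers and all 4 oxidase subunits a lower one with TMM scaling, although Sod3 turned to a lower one when libraries were scaled to total counts or to housekeeping genes. Cybb, the catalytic subunit of the oxidase, was the member whose change passed the test (edgeR's quasi-likelihood test, Benjamini-Hochberg adjusted p under 0.05 over all genes). Of the 5 scavengers, 0 passed it, with 1.79% of all tested genes called higher in sgPrdx2. Of the 4 oxidase subunits, 1 passed it, with 1.54% of all tested genes called lower. At an unadjusted p under 0.05, 4 scavengers were higher (13.0% of all genes) and 2 oxidase subunits were lower (11.9% of all genes). Without any overlap between the groups, 4 scavengers were higher (16.7% of all genes) and 2 oxidase subunits lower (17.5% of all genes). DESeq2 called 4 scavengers higher (7.63% of the genes to which it gave an adjusted p) and 2 oxidase subunits lower (5.81%). The median log2 fold change was 0.47 over the scavengers and -0.42 over the oxidase subunits, beside -0.02 over all genes tested. Scaling to total counts placed the median of all genes at -0.39, and with it Sod1 was at 0.25, Cat at 0.10, Sod2 at 0.01 and Ccs at 0.51. On that scale Cybb was at -1.07, Ncf1 at -0.85, Cyba at -0.77 and Ncf4 at -0.60, and values with housekeeping scaling were within 0.02 of these. Housekeeping scaling used the 6 reference genes of the study's prognostic signature assay: Atp5b, Bag6, Cox8a, Hint1, Hnrnpa2b1 and Ndufa2. With TMM scaling, 5 of these 6 had a higher mean in sgPrdx2 livers, and the median log2 fold change of the 6 was 0.43. Scaling to them therefore lowers sgPrdx2 values relative to TMM. In whole tissue, fewer cells of a type and less RNA per cell cannot be told apart.

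**Figure D1:**
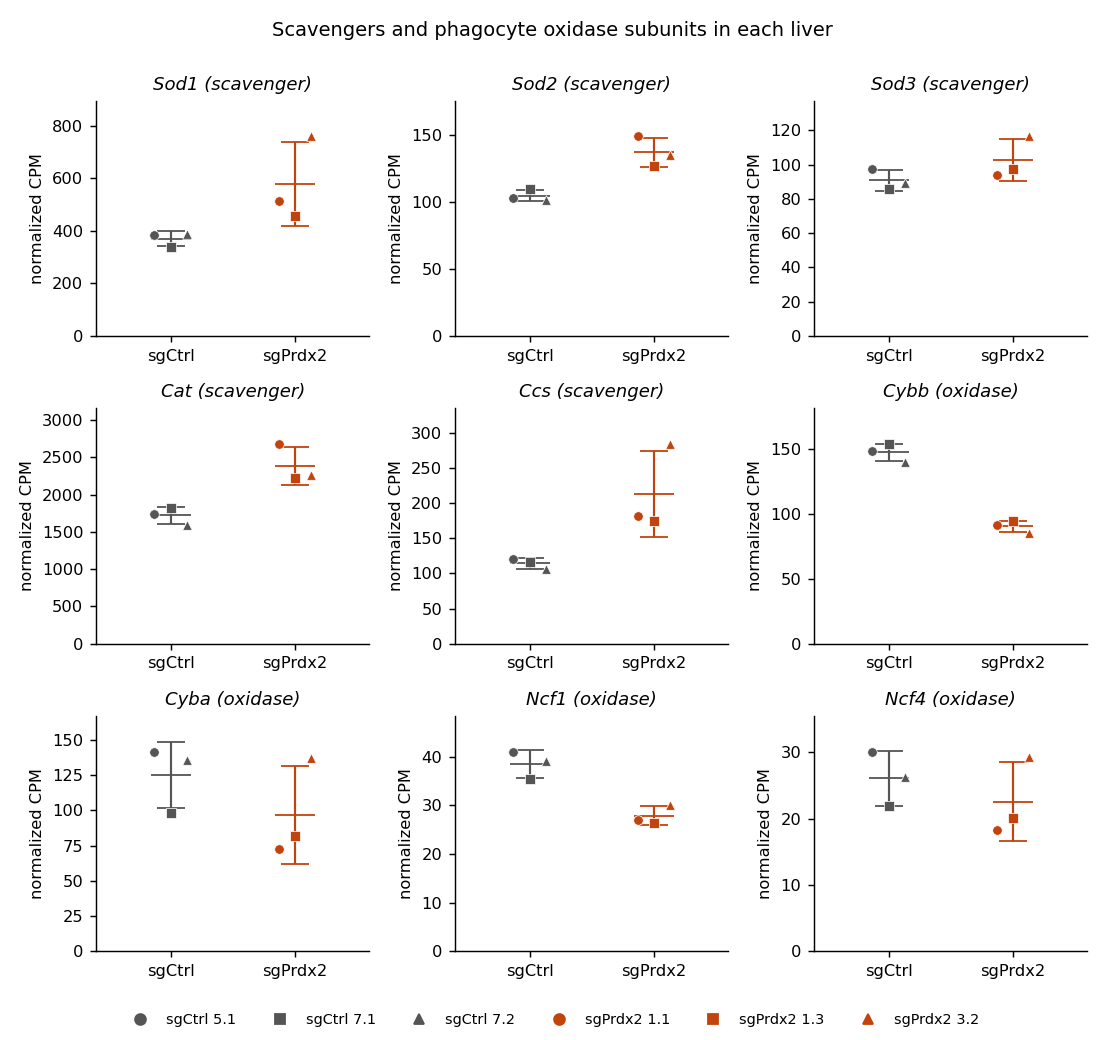
Normalized CPM of each gene in the 3 sgCtrl and 3 sgPrdx2 livers (points, 1 per liver), with the group mean (long bar) and SD (whiskers); each vertical axis starts at 0. Sod1, Sod2, Cat and Ccs were higher and Cybb and Ncf1 lower in each sgPrdx2 liver, while Sod3, Cyba and Ncf4 overlapped between groups.

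Sod1 encodes the copper-zinc superoxide dismutase of the cytosol and the space between the mitochondrial membranes (chr16:90220754-90226329, GRCm38). Its normalized expression was 386, 337 and 387 CPM in sgCtrl livers 5.1, 7.1 and 7.2 and 514, 458 and 759 CPM in sgPrdx2 livers 1.1, 1.3 and 3.2. Each sgPrdx2 liver was above each sgCtrl liver, and liver 3.2 stood well above its group. Means were 370 ± 28.7 CPM (SD, n = 3) and 577 ± 160 CPM (SD, n = 3), a log2 fold change of 0.64 (SE 0.21, 95% interval 0.16 to 1.12) with an adjusted p of 0.119. Without liver 3.2 the log2 fold change was 0.41 (adjusted p = 0.133).

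Ccs, the chaperone that loads copper into SOD1, had the largest log2 fold change in size of the 9 genes in the TMM fit of all 6 livers, though not with total-count or housekeeping scaling, with the length and GC correction, or without liver 3.2 (chr19:4825366-4839332). It was measured at 121, 116 and 106 CPM in the sgCtrl livers and at 181, 174 and 284 CPM in sgPrdx2 livers 1.1, 1.3 and 3.2. The groups did not overlap, and liver 3.2 was again the highest. Means of 114 ± 7.55 CPM and 213 ± 61.3 CPM (SD, n = 3 each) gave a log2 fold change of 0.90 (SE 0.21, 95% interval 0.42 to 1.38), which missed the threshold at an adjusted p of 0.0570. It passed without liver 3.2 (log2 fold change 0.65, adjusted p = 0.0425).

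Cat, the peroxisomal catalase (chr2:103453849-103485160), was the most abundant of the 9 RNAs. It reached 1742, 1822 and 1597 CPM in the sgCtrl livers and 2677, 2218 and 2263 CPM in sgPrdx2 livers 1.1, 1.3 and 3.2. The groups did not overlap, and here liver 1.1 and not 3.2 was the highest. Means were 1720 ± 114 CPM and 2386 ± 253 CPM (SD, n = 3 each), with a log2 fold change of 0.47 (SE 0.16, 95% interval 0.11 to 0.83) and an adjusted p of 0.122.

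Sod2, the manganese dismutase of the mitochondrial matrix (chr17:13006846-13040063), was at 103, 109 and 102 CPM in the sgCtrl livers and at 149, 127 and 135 CPM in sgPrdx2 livers 1.1, 1.3 and 3.2. The groups were apart, and liver 1.1 was the highest, as for Cat. The means of 105 ± 4.21 CPM and 137 ± 11.1 CPM (SD, n = 3 each) corresponded to a log2 fold change of 0.39 (SE 0.13, 95% interval 0.09 to 0.68) with an adjusted p of 0.121.

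Sod3, the dismutase secreted into the extracellular space (chr5:52363791-52371418), was at 97.5, 85.7 and 89.4 CPM in the sgCtrl livers and at 94.0, 97.3 and 116 CPM in sgPrdx2 livers 1.1, 1.3 and 3.2. Groups overlapped, as sgCtrl liver 5.1 lay above 2 sgPrdx2 livers. The log2 fold change was 0.18 (SE 0.14, 95% interval -0.14 to 0.49, adjusted p = 0.457), and it was -0.20 with scaling to total counts and -0.21 with scaling to housekeeping genes. Both of these scalings placed the median of all genes at -0.39 and -0.38, respectively, and relative to that median Sod3 stood at 0.18 in both.

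Cybb encodes gp91phox, the flavoprotein of cytochrome b558 that passes electrons from NADPH to oxygen (chrX:9435252-9487771). Its normalized expression was 148, 154 and 140 CPM in sgCtrl livers and 91.2, 94.2 and 85.6 CPM in sgPrdx2 livers 1.1, 1.3 and 3.2. Every sgPrdx2 liver was below every sgCtrl liver, and the livers of each group lay close together. Cybb fell from 147 ± 6.81 CPM to 90.3 ± 4.41 CPM (SD, n = 3 each), a log2 fold change of -0.71 (SE 0.12, 95% interval -0.99 to -0.42, adjusted p = 0.0394). Leaving out any liver other than 3.2 ended this call, with an adjusted p of 0.0667 to 0.147 and log2 fold changes of -0.67 to -0.74, in fits with fewer livers.

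Cyba encodes p22phox, the partner that holds gp91phox in the membrane and also serves other NOX enzymes outside phagocytes (chr8:122424776-122432930). It was at 142, 98.2 and 136 CPM in the sgCtrl livers and at 72.5, 81.6 and 137 CPM in sgPrdx2 livers 1.1, 1.3 and 3.2. Livers 1.1 and 1.3 were below all sgCtrl livers, whereas liver 3.2 was at the level of sgCtrl livers 5.1 and 7.2. The log2 fold change was -0.37 (SE 0.26, adjusted p = 0.411), and it was -0.69 without liver 3.2 (adjusted p = 0.0822). Although both proteins form 1 complex, the ratio of Cybb to Cyba counts was 1.05, 1.57 and 1.03 in the sgCtrl livers and 1.26, 1.16 and 0.625 in sgPrdx2 livers 1.1, 1.3 and 3.2. The lowest ratio was in liver 3.2, and the groups overlapped (two-sided exact permutation test, p = 0.6, adjusted p = 0.686 over 8 ratios).

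Ncf1 encodes p47phox, the organizer that brings the cytosolic subunits to the membrane (chr5:134220053-134229625). It was at 41.1, 35.5 and 39.2 CPM in the sgCtrl livers and at 27.1, 26.4 and 30.1 CPM in sgPrdx2 livers 1.1, 1.3 and 3.2. All sgPrdx2 livers lay below all sgCtrl livers. Means of 38.6 ± 2.84 CPM and 27.9 ± 1.95 CPM (SD, n = 3 each) gave a log2 fold change of -0.47 (SE 0.12, 95% interval -0.74 to -0.20), which missed the threshold (adjusted p = 0.0689) and passed it without liver 3.2 (-0.52, adjusted p = 0.0464). Of the exon bases of Ncf1, 11.1% overlap Gtf2ird2 on the other strand, and the strandedness of the counting is not given in the sources used here, so that reads there cannot be assigned.

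Ncf4 encodes p40phox, a cytosolic subunit that binds a phagosomal lipid (chr15:78244801-78262580). It was at 30.1, 21.8 and 26.2 CPM in the sgCtrl livers and at 18.3, 20.0 and 29.3 CPM in sgPrdx2 livers 1.1, 1.3 and 3.2. As for Cyba, livers 1.1 and 1.3 were below all sgCtrl livers and liver 3.2 was within their range. The log2 fold change was -0.21 (SE 0.20, adjusted p = 0.551). It was -0.43 without liver 3.2 (adjusted p = 0.135).

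**Figure D2:**
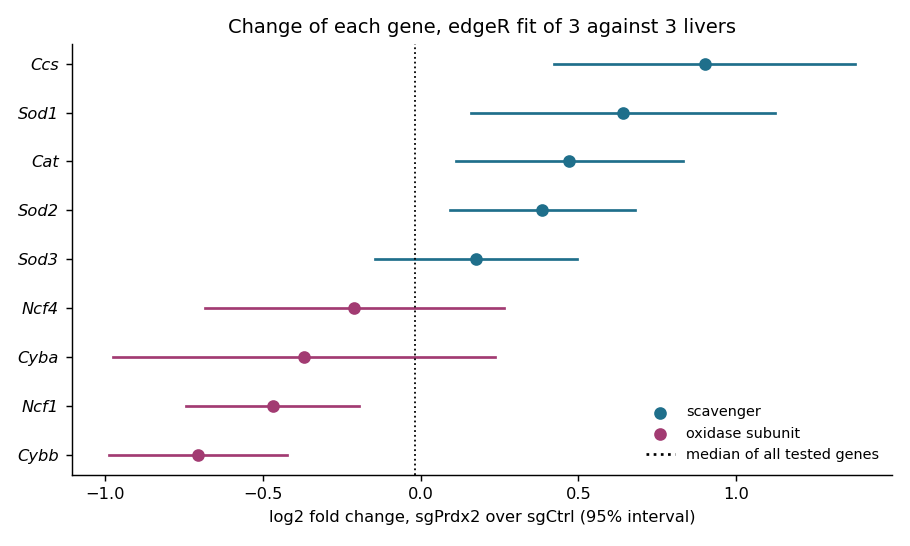
Log2 fold change of each gene, sgPrdx2 over sgCtrl, from the edgeR fit of all 6 livers (points) with its 95% interval (bars); the dotted line is the median of all tested genes at -0.02. The intervals of Sod3, Cyba and Ncf4 include that line, and those of the other 6 genes do not.

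Per kilobase of the principal GENCODE transcript, Cat was at 658 ± 43.6 and Sod1 at 577 ± 44.7 CPM per kb in sgCtrl livers, followed by Cyba at 168 ± 31.7 and Ccs at 107 ± 7.08 CPM per kb (SD, n = 3 each). Cat and Sod1 were neighbours in this order at 913 ± 96.9 and 900 ± 250 CPM per kb in sgPrdx2 livers, where their ranges overlapped. The other 5 genes were at 14.2 to 31.0 CPM per kb in sgCtrl livers, in the order Cybb, Sod3, Sod2, Ncf4 and Ncf1. In that order the ranges of Sod2 and Ncf4, and those of Ncf4 and Ncf1, overlapped in sgCtrl livers. Cybb went from 31.0 ± 1.43 to 19.0 ± 0.928 CPM per kb, below the 27.5 ± 3.24 of Sod3 and the 23.3 ± 1.89 of Sod2 in sgPrdx2 livers. With the union of all annotated exons as length, Sod1 was at 93.2 and Cyba at 121 CPM per kb in sgCtrl livers, so that the order of levels between genes depends on the transcripts taken.

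Scaling of a library cancels when scavengers and oxidase subunits are set against each other within a liver. The mean log2 CPM of the 5 scavengers minus that of the 4 oxidase subunits was 1.76, 1.98 and 1.77 in sgCtrl livers 5.1, 7.1 and 7.2 and 2.92, 2.71 and 2.73 in sgPrdx2 livers 1.1, 1.3 and 3.2. Liver 3.2 was not apart from its group on this measure. The group means of 1.84 ± 0.13 and 2.79 ± 0.12 (SD, n = 3 each) differed by 0.95 on the log2 scale, which is a 1.93-fold wider gap, and the difference stayed between 0.86 and 1.03 without Cyba, without Ccs, with another prior count or without any liver. This value is a description of the members and was not tested.

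**Figure D3:**
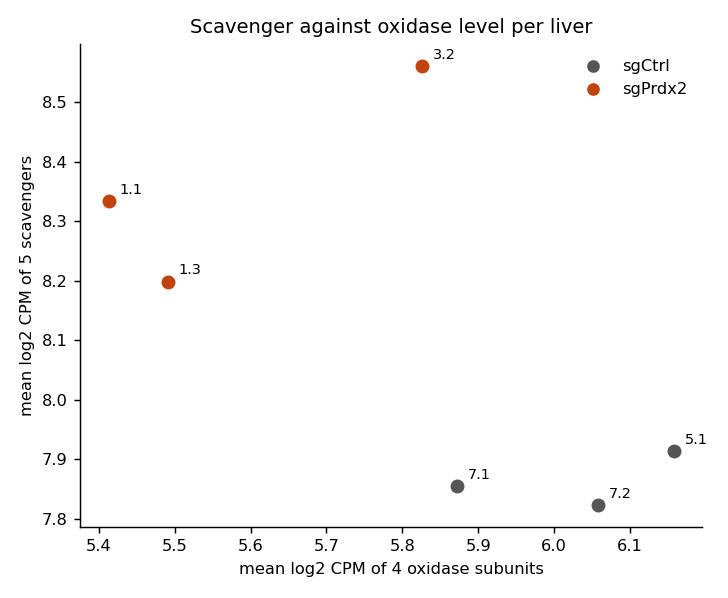
Mean log2 CPM of the 5 scavenger genes (vertical axis) against that of the 4 oxidase subunits (horizontal axis), 1 point per liver, with axes that do not start at 0. The sgPrdx2 livers lie higher and to the left, and liver 3.2 has the highest scavenger level and the highest oxidase level of its group.

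Of 8 ratios between members, 4 separated the groups, each with p = 0.1 by the two-sided exact permutation test, which is the smallest p that 3 livers against 3 allow, and an adjusted p of 0.2 over the 8. The ratio of Cat to Cybb counts was 11.8, 11.8 and 11.4 in the sgCtrl livers and 29.3, 23.5 and 26.4 in sgPrdx2 livers 1.1, 1.3 and 3.2, or 2.26-fold higher. Sod3 to Sod1 was 0.253, 0.254 and 0.231 against 0.183, 0.213 and 0.153. On these counts the secreted dismutase was lower relative to the cytosolic one in each sgPrdx2 liver. The counts are not corrected for transcript length, which is 3.738 kb for Sod3 and 0.641 kb for Sod1. Sod1 to Ccs, the dismutase relative to its chaperone, was 3.19, 2.91 and 3.65 against 2.84, 2.62 and 2.67. Ncf1 to Cybb was 0.277, 0.231 and 0.280 against 0.297, 0.280 and 0.352. The lowest sgPrdx2 ratio of Ncf1 to Cybb, 0.280 in liver 1.3, exceeded that of sgCtrl liver 7.2 only in the fourth decimal. The other 4 ratios overlapped, and the log2 difference of Cat to Sod1 changed from -0.14 to 0.11 without liver 3.2.

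The members differed among themselves in how liver 3.2 compared with the other sgPrdx2 livers, and this went with the length of the transcript. Against the mean of livers 1.1 and 1.3, liver 3.2 was higher on the log2 scale by 0.83 for Cyba (0.744 kb), 0.67 for Ccs (1.067 kb), 0.65 for Sod1 (0.641 kb) and 0.61 for Ncf4 (1.464 kb). For the 5 genes with transcripts of 2.613 kb or more, the difference was -0.12 to 0.28. Over all genes with an annotated length binned by length into 4 bins of equal size, the median in liver 3.2 was 0.42 in the bin of the shortest and -0.34 in that of the longest transcripts, whereas the bin medians of the sgCtrl livers against their own group lay between -0.11 and 0.12. Correcting each library for the length and GC content of transcripts moved Sod1 to 0.34 (adjusted p = 0.0962), Ccs to 0.60 (adjusted p = 0.0359) and Cyba to -0.74 (adjusted p = 0.0285), by edgeR's quasi-likelihood test. With it, Cybb (-0.50, adjusted p = 0.0479) and Ncf1 (-0.45, adjusted p = 0.0353) passed as well, while Sod2 moved from 0.39 to 0.65 (adjusted p = 0.0543) and Ncf4 from -0.21 to -0.41 (adjusted p = 0.0863). The calls were thus 1 of 5 scavengers and 3 of 4 oxidase subunits. The correction was first computed with the union of all exons as length, which takes Sod1 as 3.970 kb, and was recomputed with principal transcripts after those values had been seen. The first version called these 4 genes too, and placed Sod1 at 0.69 and Sod3 at 0.17. With principal transcripts, Sod3 was at 0.28 beside 0.34 for Sod1, and Ncf1 at -0.45 beside -0.50 for Cybb. The ratios of counts between these genes given above carry no such correction.

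**Figure D4:**
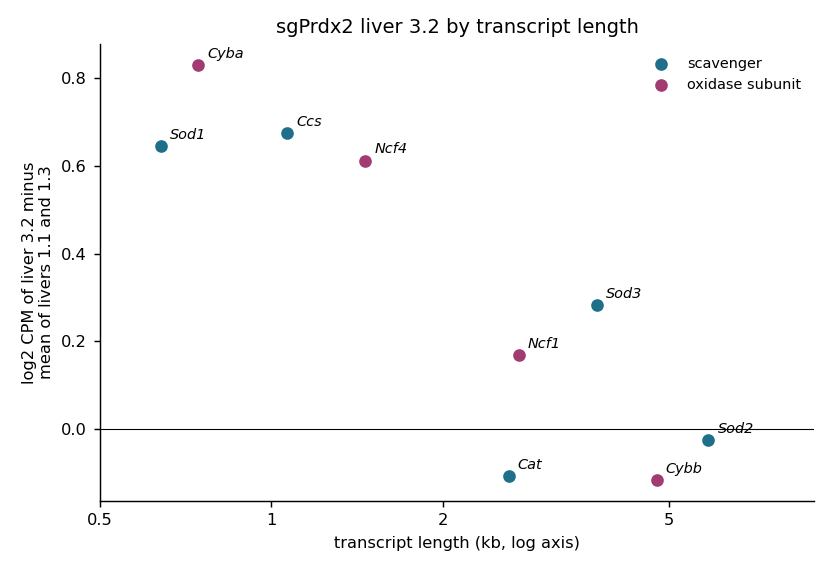
Log2 CPM of sgPrdx2 liver 3.2 minus the mean of livers 1.1 and 1.3 (vertical axis) against the length of the principal transcript in kb (horizontal log axis), 1 point per gene. The 4 genes with the shortest transcripts lie between 0.61 and 0.83, and the other 5 between -0.12 and 0.28.

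Markers of the cells that carry these genes also differed between the groups. All 16 hepatocyte markers had a higher mean in sgPrdx2 livers and 8 of them were called, beside 1.79% of all genes called higher. The markers had a median log2 fold change of 0.96 (0.60 with housekeeping scaling). Their summed level was 83353 to 91880 CPM in sgCtrl and 146937 to 193232 CPM in sgPrdx2 livers. Set against the mean of these markers within each liver, Sod1, Sod2, Cat and Ccs overlapped between groups, with log2 differences of -0.32, -0.54, -0.46 and -0.06, and Sod3 was lower in each sgPrdx2 liver (-0.76). All 15 tested macrophage and monocyte markers had a lower mean, and 3 of them were called (Mpeg1 -0.82, Itgam -1.24 and Msr1 -0.82), beside 1.54% of all genes called lower. Without overlap, 9 of the 15 were lower (17.5% of all genes). The Kupffer cell markers Vsig4 (-0.35), Clec4f (-0.33), Marco (-0.27) and Timd4 (-0.02, with a mean of 0.652 CPM in sgCtrl livers) overlapped between groups. The median of the 15 was -0.46 (-0.82 with housekeeping scaling). The summed level of the macrophage and monocyte markers was 3332 to 3640 CPM in sgCtrl and 2249 to 3049 CPM in sgPrdx2 livers. Relative to these markers Cybb (-0.16), Cyba (0.14), Ncf1 (0.08) and Ncf4 (0.32) overlapped between groups. Both marker lists hold genes that varied widely among sgCtrl livers, such as G6pc (99.9 ± 80.7 CPM) and Clec4f (77.5 ± 60.6 CPM, SD, n = 3 each). Set against its markers, Cat had an SD of 0.41 on the log2 scale in sgCtrl livers, and Cybb one of 0.35. With that spread, an overlap does not show that a member followed the markers. The part of the marked cells in the differences of the members was not tested.

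Neutrophils and B cells carry the same oxidase. Of 12 neutrophil markers, the defining Ly6g, Mpo, Camp and Ngp were too low to be tested, and 0 of the 8 tested were called. At an unadjusted p under 0.05 and without overlap, 4 were lower (Ltf, Csf3r, Mmp8 and Cxcr2) and 1 was higher (Elane, 1.09). Of all genes, 11.9% were lower and 13.0% higher at that p, and 17.5% lower and 16.7% higher without overlap. Among all genes, 1.54% were called lower and 1.79% higher. Means in sgCtrl and sgPrdx2 livers were low for Ltf (0.295 and 0.0852 CPM), Elane (0.145 and 0.320 CPM), Mmp8 (1.04 and 0.490 CPM) and Cxcr2 (0.786 and 0.390 CPM). S100a8 (-0.15), S100a9 (-0.13) and Retnlg (0.11) overlapped between groups. The median of the list was -0.29 (-0.67 with housekeeping scaling). The summed level was 24.1 to 32.3 CPM in sgCtrl and 21.1 to 24.7 CPM in sgPrdx2 livers. Of 8 B cell markers, 0 were called, 2 were higher without overlap and the median was -0.04 (-0.37 with housekeeping scaling). The part of these cells in the oxidase values was not tested.

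Of 17 other genes of the NADPH oxidase system, 12 were tested, of which 9 had a lower mean. Of the 12, 2 were called lower (1.54% of all genes) and 0 higher (1.79% of all genes). The median was -0.56 (-0.93 with housekeeping scaling). Among those called lower, Prkcd, a kinase that phosphorylates p47phox, fell from 73.0 ± 6.07 to 40.5 ± 7.67 CPM (SD, n = 3 each; log2 fold change -0.85, SE 0.17, adjusted p = 0.0455). Vav1, an exchange factor for Rac in blood cells, missed the threshold at -0.58 (adjusted p = 0.0544). Nox4, which is constitutively active and makes mainly hydrogen peroxide, had a higher mean in sgPrdx2 livers, at 44.1 ± 8.91 against 23.5 ± 7.91 CPM (SD, n = 3 each), with a log2 fold change of 0.91 and an adjusted p of 0.0813. Rac1, the GTPase of most cells, was at 0.07 and Rac2, its blood cell relative, at -0.37.

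Peroxisomes hold catalase and some of the enzymes that make its substrate. Of 16 genes of peroxisome import and biogenesis, 15 had a higher mean with TMM scaling and 0 were called (1.79% of all genes were called higher). At an unadjusted p under 0.05, 8 were higher (13.0% of all genes), and 10 were higher without overlap (16.7% of all genes). The median of the 16 was 0.32 with TMM, beside 0.47 for Cat. It was -0.05 with scaling to housekeeping genes, which placed the median of all genes at -0.38. The smallest p were those of Pex6, an ATPase that recycles the import receptor (0.68, adjusted p = 0.0529), and of Pex11g (0.88), Pex16 (0.79) and Pex26 (0.44). Of 17 tested oxidases that form hydrogen peroxide, not all of them in peroxisomes, 12 had a higher mean. The median of the 17 was 0.27 (-0.10 with housekeeping scaling). Among the 17, 3 were called higher, beside 1.79% of all genes. These were Pipox, which oxidizes pipecolate and sarcosine (1.27, adjusted p = 0.0313), the urate oxidase Uox (0.99, adjusted p = 0.0373) and the polyamine oxidase Paox (0.67, adjusted p = 0.0480). The glycolate oxidase Hao1 was at 0.92 (adjusted p = 0.0772).

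Copper reaches SOD1 through importers and chaperones. Of 15 copper supply genes besides Ccs, 9 had a higher mean and 0 were called (1.79% of all genes were called higher and 1.54% lower). At an unadjusted p under 0.05, 3 were higher (13.0% of all genes) and 1 was lower (11.9% of all genes). The median of the 15 was 0.19 (-0.20 with housekeeping scaling and 0.05 without liver 3.2). The copper importer Slc31a1 was at 0.51 (adjusted p = 0.0925), the chaperone Atox1 at 0.66 (adjusted p = 0.172), the cytochrome oxidase chaperone Sco2 at 0.64 (adjusted p = 0.108), and the exporter Atp7a at -1.28 (adjusted p = 0.175). Liver 3.2 was far above its group for Atox1, at 307 CPM against 166 and 152 CPM in livers 1.1 and 1.3 and 126 to 135 CPM in sgCtrl livers. Atp7a was low and lowest in liver 3.2, at 0.338 CPM against 1.57 and 1.28 CPM in livers 1.1 and 1.3. In sgCtrl livers Atp7a was at 1.62 to 3.80 CPM. Ccs, at 0.90, was above each of the 15.

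**Figure D5:**
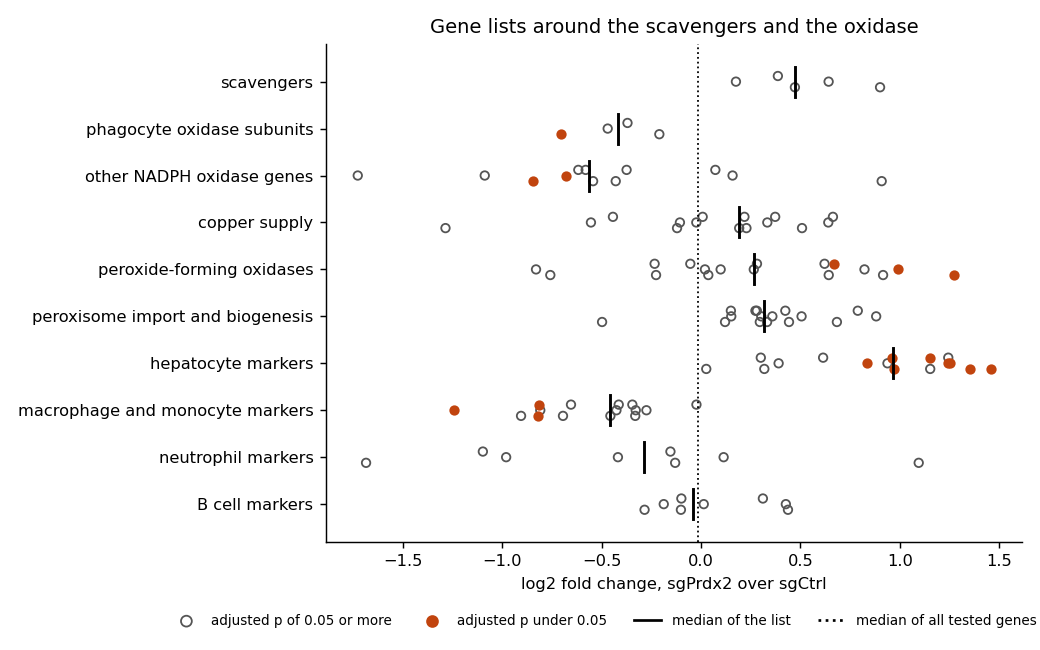
Log2 fold change, sgPrdx2 over sgCtrl, of each tested gene (points) of the scavengers, the oxidase subunits, related gene lists and cell type markers; filled points passed the test, the bar is the median of the list and the dotted line that of all tested genes. The medians of the oxidase subunits (-0.42) and of the macrophage and monocyte markers (-0.46) lie to the left of the line, and those of the scavengers (0.47) and hepatocyte markers (0.96) to the right.

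The genes whose log2 CPM over the 6 livers was most like that of a member were named by Pearson's r, among 14123 genes, as a description that includes the difference between groups. For Cybb they were Ccdc88a (r = 0.998) and Mitf (r = 0.997), and for Ncf1 Vsir (r = 0.998) and Tifab (r = 0.996). Cyba was closest to Fxyd5 and Trem2 (r = 0.999 each) and Ncf4 to Il2rg (r = 0.997) and Sh3bgrl3 (r = 0.996). Among the scavengers, Dclk3 was among the closest genes for both Sod2 and Cat (r = 0.996 each), with Sdhaf3 (r = 0.994) beside it for Sod2 and Cd1d1 (r = 0.998) for Cat. Sod1 was closest to Trmt61b and Washc3 (r = 0.998 each), Ccs to Gm20522 (r = 0.998) and Mospd3 (r = 0.997), and Sod3 to Gm12216 (r = 0.997) and Wdr31 (r = 0.995). The number of genes with an r over 0.9 ranged from 377 for Ncf4 to 1346 for Sod1, so that the named genes are the first of many.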

How the data were processed

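RNA of 6 whole livers was sequenced, 3 per group, and groups were taken from the labels. The authors deposited counts of reads per gene as whole numbers without normalization; the submitters' notes name HISAT2, HTSeq, DESeq2 and GRCm38, while annotation, versions and strandedness are not given in the sources used here. A second deposited table holds the authors' own DESeq2 comparison (means, log2 fold changes, errors and p-values) and was not used. The count matrix was fitted with edgeR 4.0.16 (R 4.3.3): filterByExpr (minimum count 10, 17032 genes kept), TMM, quasi-likelihood test with all 6 livers, and Benjamini-Hochberg adjustment over all tested genes, with calls at 0.05. A standard error is the size of the log2 fold change over the root of its F statistic. Mean log2 CPM used a prior count of 2. Ratios were compared by exact permutation tests. The floor of 3 counts covers counting error only, and no pair of livers agreed within sampling noise (chi-square per degree of freedom of at least 31.9).

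Alternatives were RLE, upper-quartile, total-count and housekeeping scaling, other count filters, DESeq2 1.42.0, an adjusted p under 0.10, leaving out each liver, and a length and GC correction (GENCODE vM21 on GRCm38, 16542 genes), whose exon-union version was kept as an added alternative. The fits were tested on simulated data. Members and lists were chosen with earlier results of these data known. Named genes were Prdx2, the members, called genes and up to 4 with the smallest p of each pathway list, and the 2 most alike per member. Rac1, Rac2, the named neutrophil genes, G6pc, Clec4f and the other named Kupffer cell markers were picked with their values in view. So were the comparisons by transcript length and with marker levels. Cell type lists are given as counts. Of the other marker lists, 1 of 10 genes was called lower for T and NK cells (Cd8a) and 1 of 8 for endothelium (Pecam1). For stellate cells, cholangiocytes and erythroid cells 0 were called, beside 1.54% of all genes called lower and 1.79% higher. Promoter windows come from RefSeq. The values of 1 called gene of the NADPH oxidase list are not reported here, although it was tested and counted with the others.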

Additional observations from a re-analysis of the deposited data

How the results depend on the processing

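Over the 9 members and 144 combinations of gene and alternative, 119 kept their direction and their side of the threshold, 18 newly passed it, 5 no longer passed it and 2 turned direction, which were Sod3 at -0.20 with total counts only and -0.21 with housekeeping scaling. The scavengers called were 0, and 1 without a low-count filter, with the length and GC correction by either length, and at an adjusted p under 0.10, 4 with DESeq2, and 0 to 1 when livers were left out in turn. The oxidase subunits called were 1, and 2 with total counts only, with housekeeping scaling, with DESeq2 and at an adjusted p under 0.10, 3 with the length and GC correction by either length, and 0 to 2 when livers were left out. Among all genes, 567 were called, and 3247 with total counts only, 989 with housekeeping scaling, 1128 without a filter, 2052 with DESeq2, 1159 with the length and GC correction (1005 with exon-union lengths, an alternative chosen after seeing the data), 1767 at an adjusted p under 0.10, and 0 to 619 when livers were left out. Leave-one-out fits have fewer livers. The log2 ratio of Cat to Sod1 ranged from -0.29 to 0.11 and that of Cybb to Cyba from -0.49 to 0.018 when livers were left out, with the highest values without sgPrdx2 liver 3.2. The causes of the other shifts were not tested. No paired analysis was possible because the groups share no replicate number. All members lay far above the floor of 3 counts.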
